A study of Mus musculus with 2 samples.

Results

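The conjugating enzymes of drug, steroid and bilirubin metabolism were examined as 63 protein-coding genes of 21474 measured in the embryonic mouse intestine. They were taken by symbol: UDP-glucuronosyltransferases of the Ugt1a, Ugt2a and Ugt2b groups (18 genes), sulfotransferases (Sult, 21), cytosolic glutathione transferases of the alpha, mu, pi, theta, omega and zeta classes (21) and membrane glutathione transferases (Mgst, 3). No measured value entered this rule. A gene matching the same rule, Ugt2a1, was not analysed here. The data are total RNA-seq of intestine from B6NCrl embryos at embryonic day 16.5 (E16.5), healthy and of pooled sexes, with no treatment or genetic change given in the labels. All samples form 1 group of 2 libraries, called replicate 1 and replicate 2, from 10 ng of RNA longer than 200 nt apiece. The labels name the libraries as biological replicates from mixed sex embryos, with 41 pooled for replicate 2 and no number given for replicate 1. TPM, the unit of level used, takes transcript length and library size into account, and values are given for replicate 1 and then replicate 2, or as mean ± SD (n = 2).

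Conjugation attaches a polar group to a small molecule, which makes it more soluble in water and a substrate for export pumps. Glucuronosyltransferases sit in the endoplasmic reticulum and use UDP-glucuronate, cytosolic sulfotransferases use the sulfate donor PAPS, and glutathione transferases use the tripeptide glutathione. In the adult gut these enzymes act on food compounds, drugs and hormones before they reach the liver. Many of the genes lie in tandem arrays of close copies, and the Ugt1a genes share their last exons and differ in the first.

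Both libraries carried the defining transcripts of gut epithelium. All 14 epithelial markers and 13 of 14 absorptive cell markers had a TPM of at least 1 in both libraries, the threshold called detected throughout. The exception was Treh, at 0.07 and 0.13 TPM. Markers of mesenchyme summed to 4789 and 4918 TPM, those of smooth muscle to 4819 and 4669 TPM, and those of red cells to 21673 and 17726 TPM. Markers of other organs were present as well. The 12 markers of pancreatic acinar tissue were all detected, summing to 8269 and 10961 TPM, and 13 of 14 markers of fetal liver summed to 996 and 655 TPM, with Tat near 0. Adrenal markers summed to 53.6 and 6.90 TPM, and 1 of 7 was detected. The part of these tissues and organs in any level given here was not tested. The libraries held 41279206 and 40758084 expected counts over genes, of which the 63 members took 134404 and 137664 (0.326% and 0.338%).

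Glutathione transferases made up most of the conjugating enzyme RNA. The 21 cytosolic genes summed to 2793.11 TPM in replicate 1 and 2792.58 TPM in replicate 2, which was 63.9 ± 1.74% of the summed level of all 63 members (SD, n = 2). The 3 membrane genes added 20.5 ± 0.0758%, UDP-glucuronosyltransferases 10.1 ± 0.735% and sulfotransferases 5.54 ± 0.926%. Since bulk libraries average over all cells, fewer cells of a type and less RNA per cell cannot be told apart in any of these levels. Without the correction for length, the shares of expected counts were 54.2% for cytosolic glutathione transferases, 22.6% for glucuronosyltransferases, 14.8% for membrane glutathione transferases and 8.41% for sulfotransferases.

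The families also differed in how many of their genes were detected. Of the 63 members, 38 (60.3%) were detected, against 62.0% of all protein-coding genes, a share near the background. By family, 19 of 21 cytosolic glutathione transferases were detected, 3 of 3 membrane ones, 9 of 18 glucuronosyltransferases and 7 of 21 sulfotransferases. A mean of at least 10 TPM was reached by 31 members, against 39.3% of all genes, and at least 100 TPM by 11 members, against 7.83% of all genes. The median over all 63 members was 8.52 ± 1.17 TPM, and over all protein-coding genes 4.45 ± 0.0141 TPM. At the other end, 14 members had no count in either library, 10 of them sulfotransferases and 4 glucuronosyltransferases, against 17.6% of all protein-coding genes. A count of 0 cannot be told from up to 3 counts per library, a floor that covers counting error only.

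**Figure D1:**
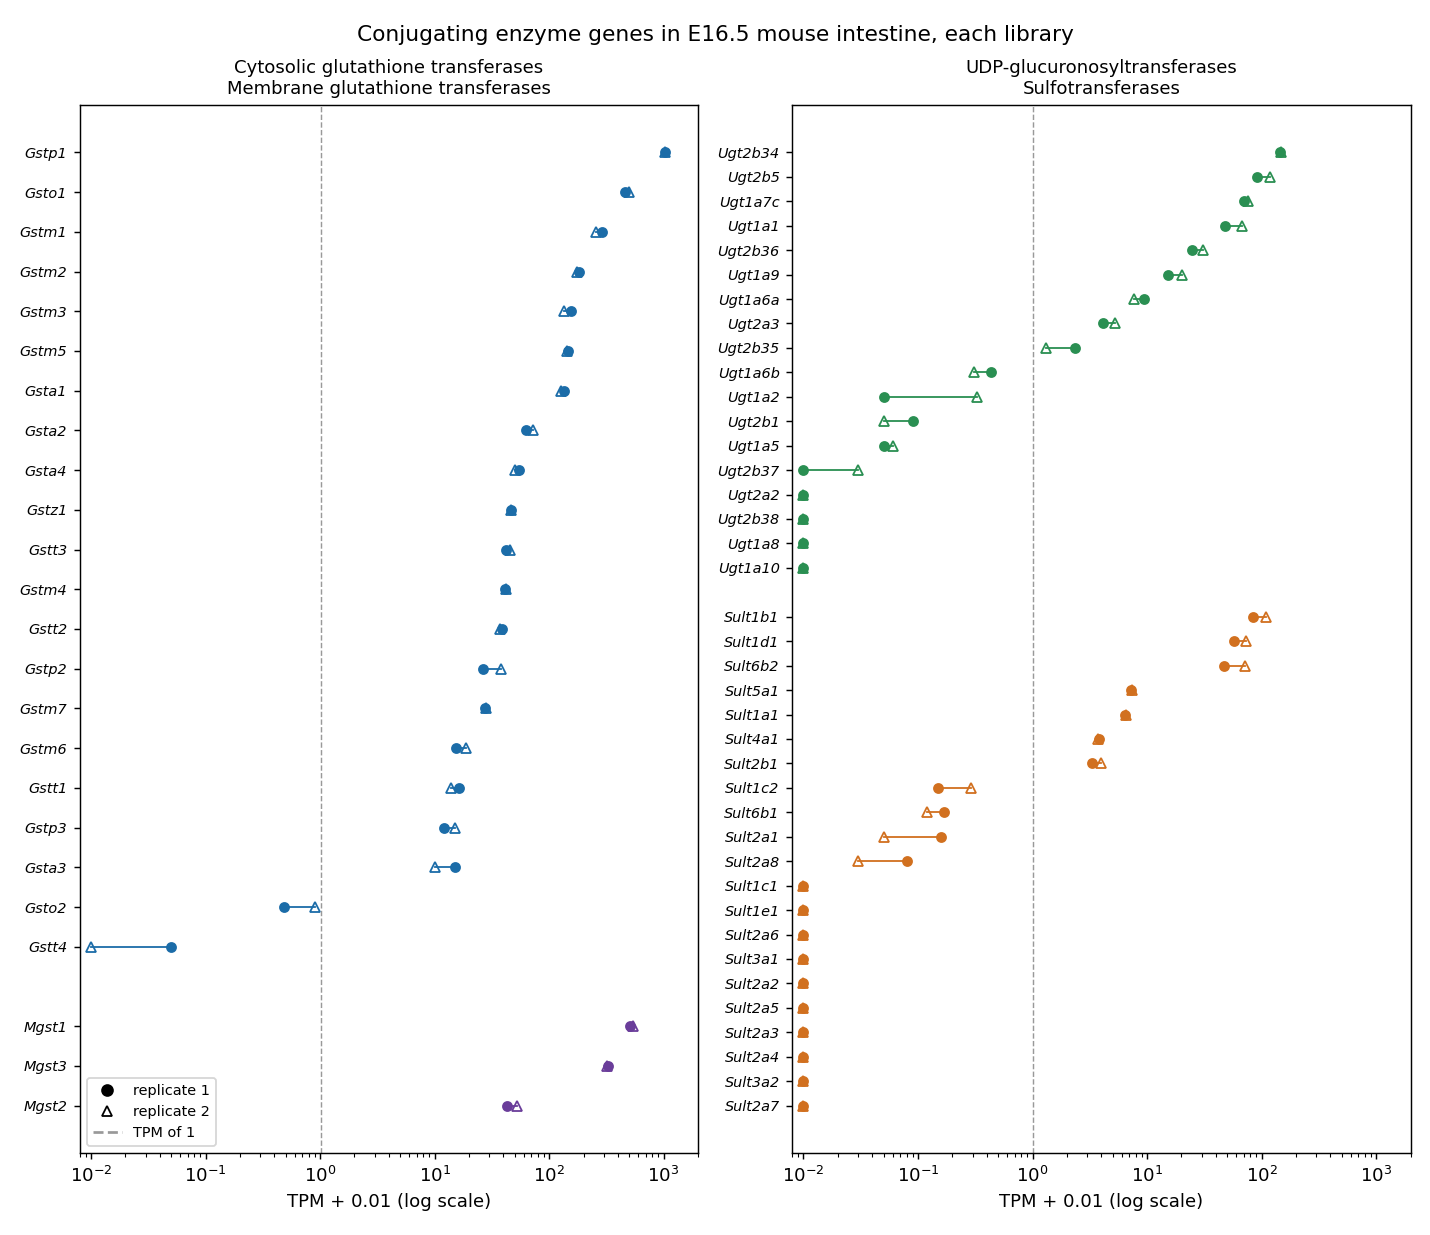
Level of each of the 63 members as TPM + 0.01 on a log axis, 1 row per gene, with filled circles for replicate 1, open triangles for replicate 2 and a dashed line at a TPM of 1. Glutathione transferases (left) lie right of the line except for Gsto2 and Gstt4, whereas 9 of 18 glucuronosyltransferases and 7 of 21 sulfotransferases (right) do, and genes without a count sit at the left edge.

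The pi class held the highest member. Gstp1 (ENSMUSG00000060803.5; mm10 chromosome 19, 4035407 to 4037985, minus strand) encodes the pi enzyme, which conjugates a broad range of electrophiles and is abundant in many tissues outside the liver. It had 1021 TPM in replicate 1 and 1037 TPM in replicate 2, rank 103 among protein-coding genes and 23.5% of the summed level of the members. Gstp2, its close copy, had 26.7 and 37.9 TPM, and Gstp3 had 12.2 and 15.2 TPM. Gstp1 stood over Gstp2 by 5.01 ± 0.34 on the log2 scale of TPM + 0.1 (SD, n = 2), or 32.2-fold, in both libraries far beyond their spread.

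Gstp1 and Gstp2 are shown in sequence because their coding regions are 98.1% identical while their levels are this far apart. They differ at 12 of 633 coding bases. The stretch from base 1 to base 100, counted from the start codon in GENCODE M21 transcripts, holds the most differences of any stretch of that length, 6, and these are in capitals.
Gstp1: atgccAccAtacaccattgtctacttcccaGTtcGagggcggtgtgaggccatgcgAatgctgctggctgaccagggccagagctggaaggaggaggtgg
Gstp2: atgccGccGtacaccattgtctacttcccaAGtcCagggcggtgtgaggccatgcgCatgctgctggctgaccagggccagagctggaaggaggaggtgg

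Reads that miss such bases cannot be assigned to 1 of the 2 genes by sequence. Transcript comparisons here and below used only GENCODE M21 transcripts that are also in the deposited tables. Effective lengths in those tables equal the length minus 99, so stretches of 100 bases were compared between these transcripts, on both strands. Of those in Gstp1, 47.2% occur in no other gene, while 52.8% also occur in Gstp2 and 29.1% in the pseudogene Gstp-ps. In Gstp2, 36.5% occur in no other gene. For Gstp3 the figure is 100%, and its coding region is 72.7% to 73.0% identical to those of the other pair. The split of reads between Gstp1 and Gstp2 thus rests in part on how the authors' estimate divided shared reads, and the level of Gstp2 is uncertain. The deposited intervals put Gstp1 between 987 and 1016 TPM in replicate 1 and between 1001 and 1030 TPM in replicate 2. The best estimate lies above its interval in both libraries. The same holds for Gsto1, of whose stretches 100% occur in no other gene. The intervals belong to the deposited posterior means, which for Gstp1 were 1002 and 1016 TPM.

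The sequences before the RefSeq start sites of the pi genes are shown so that they can be read beside the difference in level. Each RefSeq window (GRCm38.p6) runs from 250 bases before to 50 bases after the start, 5′ to 3′ along the gene. In GENCODE M21 the upstream end of Gstp2 is at 4046023, outside its window. That of Gstp1, at 4037985, lies inside its window. Capitals mark TGANTCAGC on either strand, a site type bound by NFE2-related factors, which was added to the search after the windows had been seen.
Gstp1 (chr19:4037863-4038162, minus strand): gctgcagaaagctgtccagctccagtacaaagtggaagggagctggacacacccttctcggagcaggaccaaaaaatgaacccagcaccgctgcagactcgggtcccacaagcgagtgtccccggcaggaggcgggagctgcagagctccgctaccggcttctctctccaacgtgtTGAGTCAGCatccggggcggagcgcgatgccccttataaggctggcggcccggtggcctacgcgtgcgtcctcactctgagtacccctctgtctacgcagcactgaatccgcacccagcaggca
Gstp2 (chr19:4042172-4042471, minus strand): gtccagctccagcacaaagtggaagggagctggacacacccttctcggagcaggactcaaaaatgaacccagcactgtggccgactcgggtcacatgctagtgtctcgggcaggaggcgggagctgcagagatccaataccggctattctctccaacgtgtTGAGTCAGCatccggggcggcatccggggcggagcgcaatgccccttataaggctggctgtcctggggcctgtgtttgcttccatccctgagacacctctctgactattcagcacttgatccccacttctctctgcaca
Gstp3 (chr19:4059398-4059697, minus strand): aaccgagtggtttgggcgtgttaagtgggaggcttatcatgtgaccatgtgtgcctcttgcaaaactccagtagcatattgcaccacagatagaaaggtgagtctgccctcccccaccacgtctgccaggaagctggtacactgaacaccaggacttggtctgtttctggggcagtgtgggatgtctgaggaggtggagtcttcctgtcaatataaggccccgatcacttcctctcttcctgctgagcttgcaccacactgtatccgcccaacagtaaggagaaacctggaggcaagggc

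The Gstp1 and Gstp2 windows aligned over 290 columns at 81.7% identity, and both hold TGANTCAGC. It starts at -74 from the RefSeq start site in Gstp1 and at -89 in Gstp2. The 2 were the only matches among 56 members with a window. Since the motif was chosen from these windows, its share of all 27025 genes with a window, 1.37%, is given as a description only. The Gstp3 window has no match and aligned to Gstp1 over 21 columns only. Within these RefSeq windows Gstp1 and Gstp2 share this match, and its part in the level of either gene was not tested. A match is a description of letters, and binding was not measured.

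The second-highest cytosolic gene, after Gstp1, belongs to the omega class. Gsto1 (ENSMUSG00000025068.7; chromosome 19, 47854970 to 47864790, plus strand), whose product reduces dehydroascorbate and methylated arsenic species, had 464 and 496 TPM. Gsto2, a dehydroascorbate reductase gene that lies 743 bases beyond Gsto1, had 0.47 and 0.89 TPM from 17 and 30 counts. The ratio was 9.32 ± 0.49 on the log2 scale with a pseudocount of 0.1 and 8.17 with a pseudocount of 1, the widest of the pairs compared in which both genes had more than 3 counts. No stretch of 100 bases of either gene occurs in another gene among the transcripts compared.

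All 7 mu genes were detected. These enzymes conjugate epoxides and other electrophiles and lie side by side on chromosome 3 (107895821 to 108044894). Gstm1 had 288 and 255 TPM, Gstm2 had 181 and 177 TPM, and Gstm3 had 156 and 136 TPM. Gstm5 had 147 and 144 TPM, Gstm4 had 41.0 and 42.0 TPM, Gstm7 had 27.55 and 27.9 TPM, and Gstm6 had 15.3 and 18.8 TPM. The 4 highest formed an order in which Gstm1 and Gstm2 each stood apart from the other mu genes, and Gstm3 and Gstm5 overlapped. Gstm1 over Gstm2 was 0.60 ± 0.10 on the log2 scale. Although Gstm1 and Gstm3 have coding regions 89.5% identical, 98.7% and 96.2% of their 100-base stretches are private. Of the stretches of Gstm5, 5.58% lie on the opposite strand to the antisense gene 4933431E20Rik, which had 11.2 and 12.1 TPM, and the sources used here do not say whether strand was kept.

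The alpha class was represented by all 4 genes. Gsta1 had 136 and 128 TPM and Gsta2 had 62.45 and 73.0 TPM. Gsta4, specialised for the lipid peroxidation product 4-hydroxynonenal, had 54.9 and 50.2 TPM. Gsta3, which in mouse detoxifies the epoxide of aflatoxin B1, had 15.2 and 10.15 TPM. Gsta1 exceeded Gsta2 in both libraries, by 0.97 ± 0.22 on the log2 scale. Their coding regions are 97.5% identical, and 72.0% of the stretches of Gsta1 and 71.6% of those of Gsta2 are private. The rest is shared between them and with Gm10639, a protein-coding gene outside the rule with 19.6 and 18.7 TPM.

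The theta and zeta classes lay lower. Theta enzymes act on small halogenated compounds. Gstt3 had 41.9 and 45.3 TPM, Gstt2 had 38.8 and 37.1 TPM and Gstt1 had 16.4 and 14.0 TPM, while Gstt4 had 1 count in replicate 1 and 0 in replicate 2. Gstt4 lies between Gstt1 and Gstt2 on chromosome 10, both detected. Gstz1, the maleylacetoacetate isomerase of tyrosine breakdown, had 46.62 and 46.64 TPM.

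The 3 membrane glutathione transferases belong to a protein family unrelated to the cytosolic ones and lie apart on chromosomes 1, 3 and 6. Mgst1 (ENSMUSG00000008540.7; chromosome 6, 138140316 to 138156755, plus strand), of the endoplasmic reticulum and outer mitochondrial membrane, had 507 and 538 TPM, second of all members. Mgst3, with glutathione peroxidase activity, had 325 and 323 TPM. Mgst2, which can make leukotriene C4, had 42.5 and 52.6 TPM. Mgst1 stood over Mgst3 by 0.69 ± 0.07 and over Mgst2 by 3.46 ± 0.16 on the log2 scale. In expected counts, with no correction for length, Mgst1 over Mgst3 was 0.05 and the pair was not apart. None of the 3 shares a 100-base stretch with another gene.

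**Figure D2:**
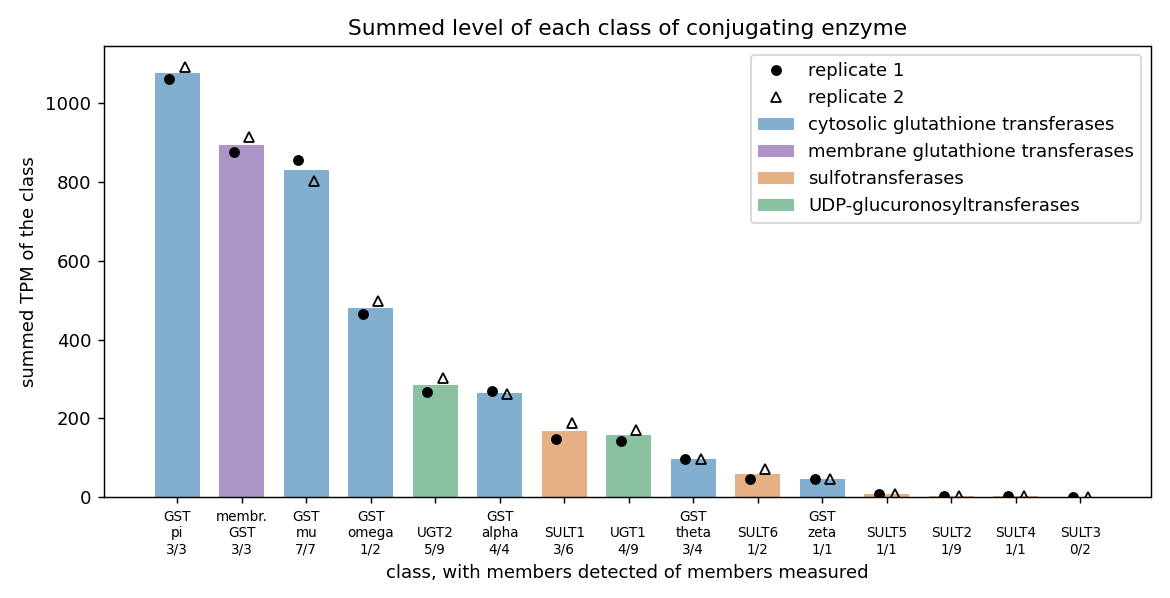
Summed TPM of each class as bars (mean of the 2 libraries), with filled circles for replicate 1 and open triangles for replicate 2, and members detected of members measured under each name. The pi, membrane and mu classes sum to 1075, 894 and 829 TPM on average, and the highest glucuronosyltransferase class, Ugt2, to 285 TPM.

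Among glucuronosyltransferases, the Ugt2 group summed to 285 ± 23.9 TPM and the Ugt1 group to 157 ± 20.2 TPM. The highest was Ugt2b34 (chromosome 5, 86889767 to 86906937, minus strand) with 146 and 147 TPM. Ugt2b5 followed with 91.0 and 117 TPM, and Ugt2b36 had 24.7 and 30.9 TPM. Ugt2a3 had 4.11 and 5.21 TPM and Ugt2b35 had 2.32 and 1.29 TPM. Enzymes of the Ugt2 group conjugate steroids, bile acids and drugs. The other 4 measured, Ugt2b1, Ugt2b37, Ugt2b38 and Ugt2a2, had at most 0.08 TPM, and the last 2 had no count.

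Ugt2b5 and Ugt2b38 are the closest Ugt2 pair by coding sequence, at 97.0% identity, and only the first had counts: 4709 and 5904, against 0 and 0. They differ at 47 of 1593 coding bases. Bases 1412 to 1511, where 11 differ, are shown with those in capitals, since such bases carry the assignment of reads to Ugt2b5.
Ugt2b5: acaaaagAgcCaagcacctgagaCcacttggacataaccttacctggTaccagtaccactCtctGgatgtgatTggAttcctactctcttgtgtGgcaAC
Ugt2b38: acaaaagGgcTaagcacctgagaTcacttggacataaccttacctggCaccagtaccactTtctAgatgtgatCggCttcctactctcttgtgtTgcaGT

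Of the 100-base stretches of Ugt2b5, 75.3% are private and the others occur in Ugt2b38. Ugt2b34 and Ugt2b35, with Ugt2b1 between them, gave another wide ratio within the group. It was 6.32 ± 0.57 on the log2 scale of TPM and 7.17 in expected counts.

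In the Ugt1 group, 4 of 9 genes were detected. Ugt1a7c had 70.4 and 75.7 TPM, and Ugt1a1, the bilirubin-conjugating enzyme, had 47.75 and 67.6 TPM. Ugt1a9 had 15.2 and 20.1 TPM. Ugt1a6a, for small planar phenols, had 9.34 and 7.69 TPM. Ugt1a7c and Ugt1a1 did not stand apart: the ratio was 0.36 ± 0.28 on the log2 scale, the exception among the 25 pairs compared. Ugt1a6b had 0.42 and 0.30 TPM, Ugt1a2 had 0.04 and 0.32 TPM and Ugt1a5 had 0.04 and 0.05 TPM, and Ugt1a8 and Ugt1a10 had no count. Under 50% of the 100-base stretches of each of these genes are private when matches on either strand count. The private share was 22.6% for Ugt1a1, 41.5% for Ugt1a9, 48.4% for Ugt1a7c and 49.6% for Ugt1a6a. For Ugt1a1, 77.4% of the stretches are shared on either strand but 57.2% on the same strand. The sources used here do not say whether strand was kept. Reads of the common exons do not name their gene, so levels within the group carry the uncertainty of how the authors' estimate divided them.

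The closest pair of all members by coding sequence lies in this group. Ugt1a6a and Ugt1a6b are 98.4% identical over the coding region, with 26 differing bases of 1596, and Ugt1a6a stood higher by 4.23 ± 0.07 on the log2 scale with a pseudocount of 0.1 and by 2.80 with a pseudocount of 1, which weighs on the low level of Ugt1a6b. Of the stretches of Ugt1a6b, 29.1% are private, so its level is uncertain. Bases 261 to 360 of the coding region hold 14 of the differences, in capitals.
Ugt1a6a: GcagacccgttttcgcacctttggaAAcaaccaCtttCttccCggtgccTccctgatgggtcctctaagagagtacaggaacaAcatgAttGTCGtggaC
Ugt1a6b: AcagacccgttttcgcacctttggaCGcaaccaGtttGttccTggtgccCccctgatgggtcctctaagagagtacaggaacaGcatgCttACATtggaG

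Sulfotransferase RNA came mainly from 3 genes. Sult1b1, which sulfates thyroid hormone and phenols, had 84.3 and 109.9 TPM. Sult1d1, which in mouse sulfates catecholamines, had 56.9 and 72.6 TPM, and Sult6b2 had 47.2 and 71.65 TPM. Each was higher in replicate 2. Sult1b1 stood over Sult1d1 by 0.58 ± 0.02 on the log2 scale of TPM, and in expected counts without length the ratio was -0.33, the opposite direction. Of Sult6b2, 67.9 ± 1.70% was assigned to its transcript of 2160 bases, annotated as a target of nonsense-mediated decay rather than as coding for the full protein.

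The other 4 detected sulfotransferases lay below 10 TPM. Sult5a1 had 7.25 and 7.42 TPM. Sult1a1, the phenol sulfotransferase, had 6.41 and 6.50 TPM. Sult4a1, known from brain, had 3.76 and 3.72 TPM, and Sult2b1, which sulfates cholesterol and other hydroxysteroids, had 3.27 and 3.99 TPM. All 4 had close values in both libraries. Sult1a1 over Sult1d1 was -3.30 ± 0.23 on the log2 scale of TPM and -4.28 in expected counts.

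The remaining 14 sulfotransferases were not detected. Sult1c2 had 7 and 14 counts and Sult6b1 had 9 and 6 counts. The estrogen sulfotransferase Sult1e1, Sult1c1, Sult3a1 and Sult3a2 had none. The 8 Sult2a genes, hydroxysteroid and bile acid sulfotransferases, fill chromosome 7 from 13623967 to 14494230, and over all 8 together there were 8 counts in replicate 1 and 2 in replicate 2. These came from Sult2a1 and Sult2a8, with 4 and 1 counts each. The whole array was thus at or near the floor.

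Neighbouring genes could lie far apart in level. With members joined when fewer than 200000 bases apart, 52 of the 63 fell into 10 arrays and 11 stood alone. The mu, alpha and pi arrays were detected throughout, the Sult2a, Sult1c and Sult3a arrays not at all, and the others were mixed. The array of 12 genes on chromosome 5 (86889767 to 87591594) holds both glucuronosyltransferases and sulfotransferases, 7 of them detected. In it Sult1b1 is followed by Sult1d1 and then by Sult1e1, which had no count and lies 6941 bases beyond Sult1d1.

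**Figure D3:**
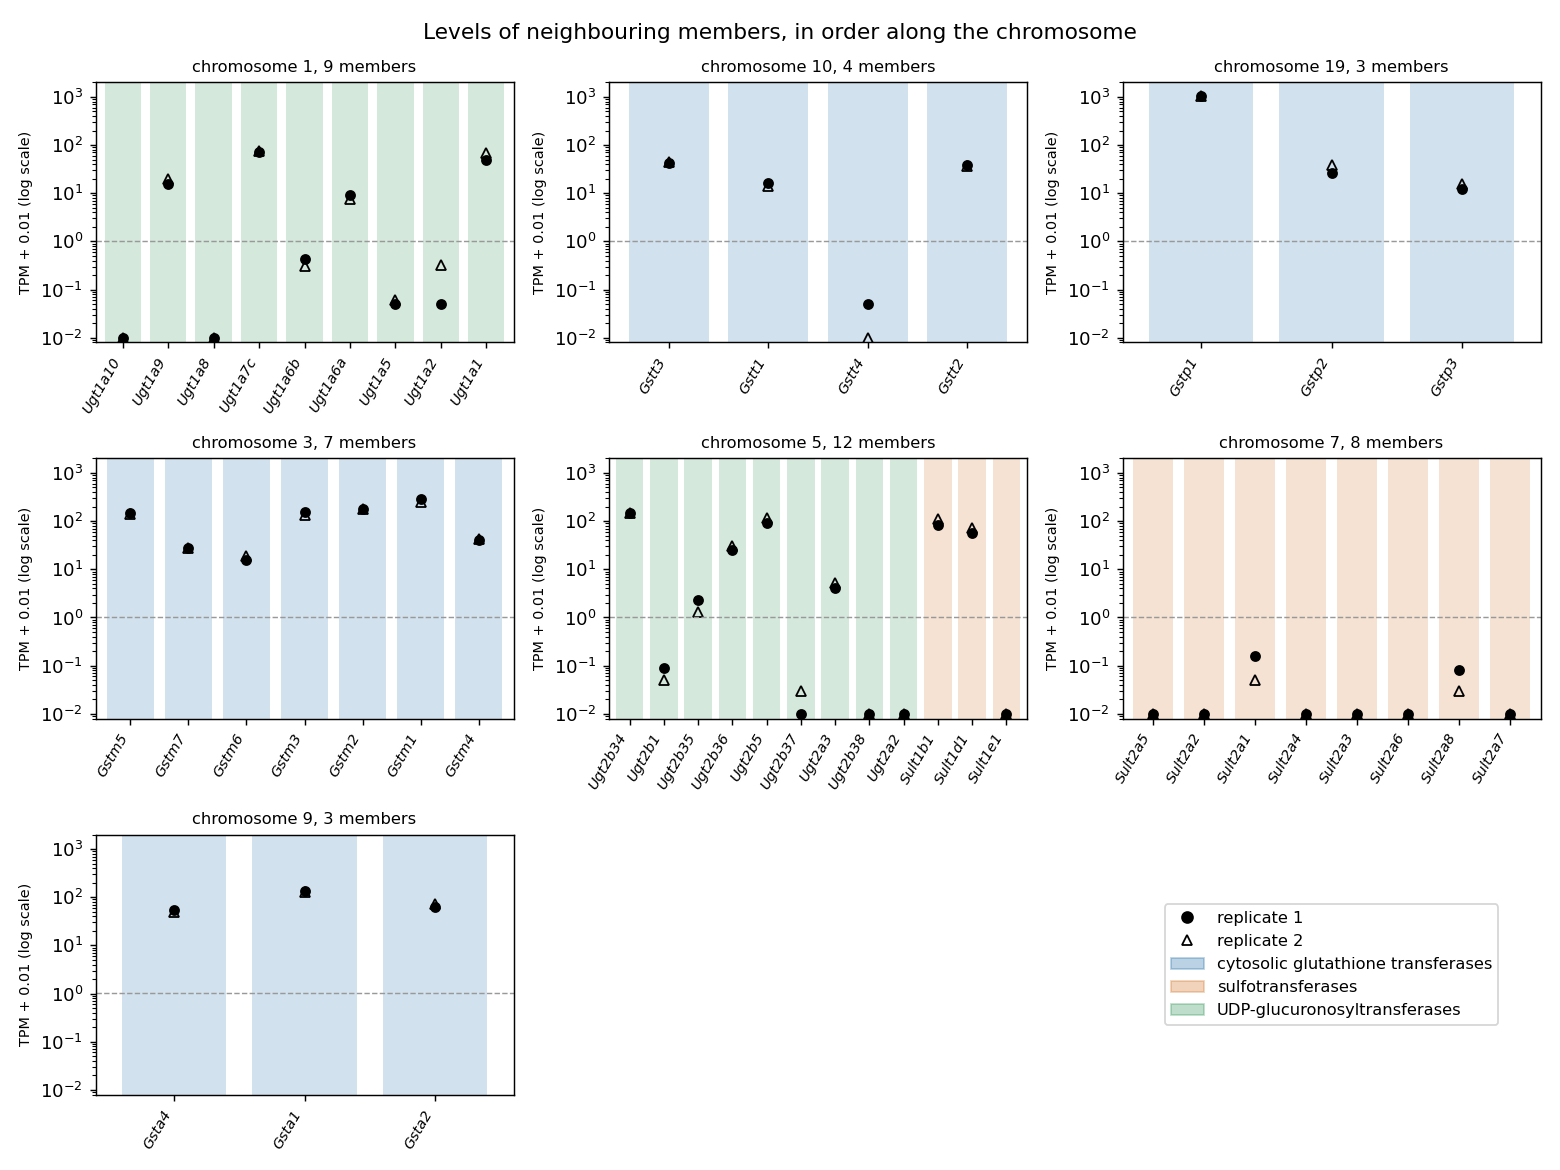
Levels (TPM + 0.01, log axis) of members in the 7 arrays with at least 3 of them, placed in order along the chromosome and not to distance, with filled circles for replicate 1, open triangles for replicate 2 and a dashed line at a TPM of 1. The mu array on chromosome 3 lies wholly over the line, the Sult2a array on chromosome 7 wholly under it, and detected and undetected genes are interspersed in the arrays on chromosomes 1 and 5.

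Private sequence was uneven between families. Of the 38 detected members, 19 share no 100-base stretch with another gene, and 6 share at least 50% of theirs. The 6 are Gstp1, Gstp2, Ugt1a1, Ugt1a6a, Ugt1a7c and Ugt1a9. The median private share was 100% for detected sulfotransferases, 98.9% for cytosolic glutathione transferases and 75.3% for glucuronosyltransferases. Gstt3 (84.3%) shares the rest with Gm20441, which had no count.

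**Figure D4:**
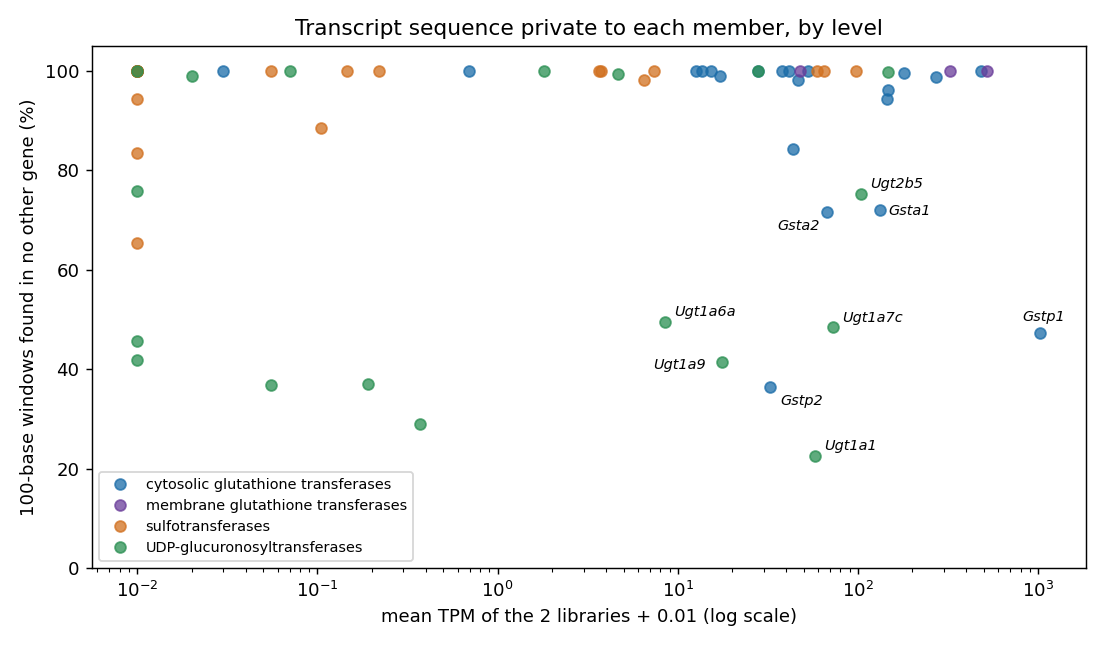
Percent of a gene's 100-base transcript stretches that occur in no other gene compared against its mean level (TPM + 0.01, log axis), 1 point per member coloured by family. Named points are detected members under 80%. Gstp1, the highest member, has 47.2% private, and Ugt1a1 has the lowest share, 22.6%, when matches on either strand count.

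Across the 38 detected members the order of levels was steep at the top and crowded below. The first 3, Gstp1, Mgst1 and Gsto1, held 46.5% of the summed level, the first 10 held 77.2% and the first 20 held 92.6%. Of the 37 neighbouring pairs in this order, 18 did not overlap in their 2-library ranges and 19 did. From Gstp1 through Mgst1, Gsto1, Mgst3, Gstm1 and Gstm2 to Gstm3, every step was beyond the spread. The ranges of Gstm3 and Ugt2b34 overlapped, as did those of Ugt2b34 and Gstm5.

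The promoter windows of 56 members, 35 of them detected, were searched for 3 more motifs, and 7 members had no window. The antioxidant response element core TGACNNNGC, bound by NRF2 with small MAF proteins, was found on either strand in 4 members, against 14.0% of 27025 genes. The 4 were Mgst1, Gstm5, Gstm7 and Gsta3, all detected. The matches start at -56, -42, -129 and -121 from the RefSeq start site of the window that holds them. Gstm7 has another window further upstream and Mgst1 another further downstream, both without a match. A TGANTCAGC site whose N is C would count under both motifs. The xenobiotic response core GCGTG, bound by the aryl hydrocarbon receptor with ARNT, was in 12 of 56 members (10 of 35 detected, 2 of 21 not), against 35.2% of genes. The gut homeobox motif TTTAT was in 32 of 56 (18 of 35 detected, 14 of 21 not), against 43.8% of genes.

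The regulators that read such sites were themselves measured. Of 20 listed, 19 were detected, against 62.0% of all genes. Nfe2l2, which encodes NRF2, led at 97.2 ± 1.85 TPM, then the bile acid receptor Nr1h4 at 82.0 ± 14.4 TPM and Hnf4a at 74.6 ± 1.04 TPM. The lowest, the aryl hydrocarbon receptor repressor Ahrr, had 0.39 ± 0.04 TPM. The receptor Ahr itself was lower than the pregnane X receptor gene Nr1i2, by 1.43 ± 0.26 on the log2 scale, at 4.91 and 6.18 TPM against 15.3 and 14.8 TPM. In expected counts the ratio was -0.51 and the pair was not apart.

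Genes that supply the co-substrates were also measured, and their counts stand against the 62.0% of all protein-coding genes that were detected. All 8 genes of UDP-glucuronate supply were detected, led by Ugdh, the dehydrogenase that makes it, at 236 ± 4.34 TPM, with Pgm1 at 226 ± 7.45 TPM and Ugp2 at 108 ± 4.92 TPM. The lowest was Slc35d1, a carrier of UDP-glucuronate into the endoplasmic reticulum, at 4.72 ± 0.11 TPM. All 12 genes of sulfate donor supply were detected, with Bpnt1, which clears the spent donor, at 297 ± 11.2 TPM, the PAPS synthase Papss1 at 152 ± 5.01 TPM, the Golgi carrier Slc35b2 at 72.9 ± 0.44 TPM and Mpst lowest at 1.88 ± 0.08 TPM. Papss1 was 15.6-fold over Papss2.

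Of 14 genes of glutathione supply, 13 were detected, against the same 62.0%. Glutathione synthetase, Gss, had 128 ± 9.06 TPM, Ggt1 had 110.3 ± 17.2 TPM and the reductase Gsr had 106 ± 14.6 TPM. The cystine carrier gene Slc7a11 was lowest, at 0.16 and 0.12 TPM. Of the ligase that limits glutathione synthesis, the modifier subunit Gclm had 58.7 and 71.7 TPM and the catalytic subunit Gclc had 3.72 and 8.65 TPM, so that Gclm was 11.2-fold over Gclc with a wide spread, 3.49 ± 0.64 on the log2 scale of TPM, and 2.28 in expected counts. A list of antioxidant and related enzymes, among them peroxidases, peroxiredoxins, the superoxide dismutase Sod1 and the quinone reductase Nqo1, was detected in 17 of 17 cases, from Prdx1 at 1217 ± 61.2 TPM, Gpx1 at 1120 ± 12.3 TPM and Sod1 at 1012 ± 69.7 TPM down to Nqo1 at 14.75 ± 0.27 TPM.

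Genes for export and breakdown of conjugates were likewise read against 62.0%. Of 11 export genes, 10 were detected: Abcg2, an apical pump for sulfates, led at 76.2 ± 0.03 TPM, with Abcc5 at 28.6 ± 1.43 TPM and Abcc2, an apical pump for glucuronides and glutathione conjugates, at 23.3 ± 4.36 TPM. The lowest was Abcb1b at 0.605 ± 0.08 TPM. Abcc2 over the basolateral pump Abcc3 was 3.19 ± 0.01 on the log2 scale of TPM and 3.82 in expected counts. All 10 measured genes of conjugate removal were detected, with Anpep at 163 ± 32.1 TPM, Ggt1, the glucuronidase Gusb at 102 ± 11.3 TPM and Dpep1 lowest at 7.36 ± 2.45 TPM. Of 24 conjugating enzymes outside the rule 14 were detected, a share near the background, with the arsenite methyltransferase As3mt at 57.65 ± 0.08 TPM, the protein-tyrosine sulfotransferase Tpst2 at 42.5 ± 2.77 TPM, and no count for Ugt3a1 and Nat3.

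Differences between the 2 libraries stayed under 2-fold in the detected members. None of the 38 differed 2-fold between libraries, against 1.21% of the protein-coding genes that average at least 1 TPM, of which 0.629% were higher in replicate 2 and 0.585% in replicate 1, a share at which fewer than 1 of 38 would be called. At a narrower limit, 28 of the 38 (73.7%) lay within 1.25-fold between libraries, against 87.3% of the same genes. By family these were 17 of 19 cytosolic and 3 of 3 membrane glutathione transferases, 4 of 9 glucuronosyltransferases and 4 of 7 sulfotransferases. The extremes on the log2 scale of replicate 2 over replicate 1 were -0.80 for Ugt2b35 and 0.60 for Sult6b2. With 1 library on each side no test was made.

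Smaller differences leaned by family. Glucuronosyltransferases were higher in replicate 2 in 7 of 9 cases, with a median log2 ratio of 0.32, and sulfotransferases in 6 of 7, with a median of 0.28. Cytosolic glutathione transferases were higher in 10 of 19, with a median of 0.00, and membrane ones in 2 of 3. Over all protein-coding genes averaging at least 1 TPM, 46.7% were higher in replicate 2 and the median was -0.01. The absorptive cell markers moved with the first 2 families: 13 of 13 were higher in replicate 2, summing to 15425 TPM there and to 10624.5 TPM in replicate 1, a median of 1.42-fold. All 12 pancreas markers were also higher in replicate 2, by a median of 1.35-fold, while the 13 liver markers were all lower there and higher in replicate 1 by a median of 1.65-fold. General epithelial markers differed by a median of 1.04-fold. The part of these cell types in the family differences was not tested.

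The deposited intervals, which cover the estimation of each library and not the spread between embryos, did not overlap for 17 of the 38 members, against 25.4% of protein-coding genes averaging at least 1 TPM. Of the 17, 13 were higher in replicate 2, among them Sult1b1, Sult1d1, Sult6b2, Ugt1a1, Ugt2b5 and Mgst1, and 4 were higher in replicate 1, namely Gstm1, Gstm3, Gsta3 and Ugt2b35.

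**Figure D5:**
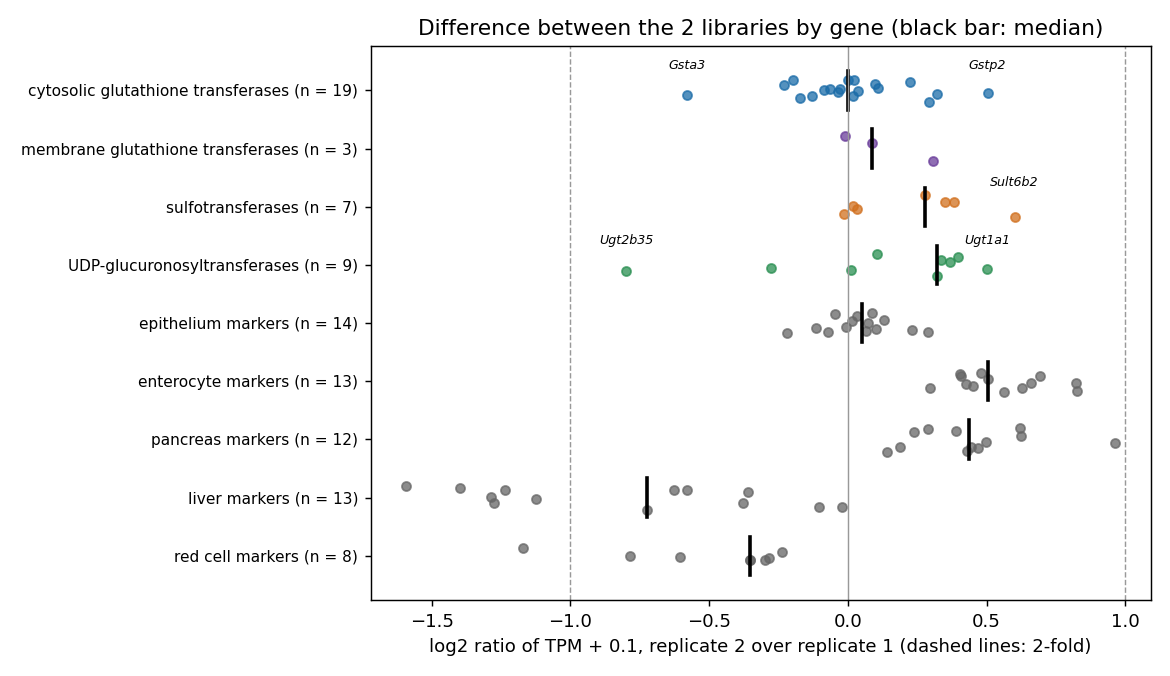
Log2 ratio of TPM + 0.1 of replicate 2 over replicate 1 for genes averaging at least 1 TPM, in rows for the 4 families (coloured) and 5 marker lists (grey), with black bars at the medians and dashed lines at 2-fold. No member passes the dashed lines; glucuronosyltransferase and sulfotransferase medians (0.32 and 0.28) lie right of 0 with those of absorptive cell and pancreas markers, and liver and red cell markers lie left.

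The leading transcript was compared between the libraries. Of 24 members with several annotated transcripts and a mean of at least 5 TPM, 22 had the same leading transcript in both libraries, against 93.8% of all such genes, a share near the background. The exceptions were Gstp3 and Gsta3. The Gstp3 transcript of 708 bases took 87.4% in replicate 1 and 20.65% in replicate 2. Its other transcript, of 685 bases, took 12.6% and 79.35%, and the gene had 217 and 257 counts. The Gsta3 transcript of 1457 bases took 59.6% and 49.0%, and the one of 894 bases took 34.7% and 49.6%. By posterior means the Gsta3 transcript of 1457 bases led in both libraries, at 57.9% and 49.35%. The leading transcript held 99.0 ± 0.01% of Gsto1 but 55.2 ± 0.05% of Mgst1 and 59.0 ± 1.70% of Gstm5.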

How the data were processed

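Total RNA-seq of E16.5 mouse intestine was analysed from gene and transcript tables of 2 libraries. Per the file headers, the authors deposited expected counts (estimated reads, shared reads divided), TPM (counts per effective length, scaled over all features with spike-ins), FPKM (not used for results) and the percent of a gene held by each transcript. Annotation was GENCODE M4 on mm10, per the text deposited beside the tables, with the aligner and quantifier not given in the sources used here. ERCC spike-ins held 1.81% and 1.74% of counts, and features naming no gene held 0.000147% and 0.000157%. Both stayed out of all comparisons.

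Of 43346 gene identifiers, 42462 matched GENCODE M21, the source of symbols, coordinates and transcript sequences. Members are protein-coding genes whose symbols match the rule. Members, lists, pairs and motifs were chosen with earlier results of these data known. Detection means a TPM of at least 1 in both libraries. A pair is apart when its log2 ratio of TPM + 0.1 has 1 sign in both libraries and a mean size over 3 SD. Members with a mean TPM of at least 1 are named with both values. Of other lists, the 3 highest and the lowest are named, except for 1 gene that is not reported here. Proteins were not compared. Coding sequences were aligned in their place, which departs from the plan. Labels name the libraries as biological replicates, and no p-values are given. Tools were Python 3.11.15, pandas 2.3.3, Biopython 1.88, and R 4.3.3 with edgeR 4.0.16 and DESeq2 1.42.0 for scaling alternatives only, on expected counts rounded to whole numbers. Alternatives were other minimums, pseudocounts and scalings, the deposited posterior means, uncorrected counts, and leaving out each library.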

Additional observations from a re-analysis of the deposited data

Results flagged for a closer look

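Gstp-ps, a processed pseudogene of the pi class (mm10 chromosome 1, 192073820 to 192074450, minus strand), lies outside the 63 protein-coding members and had signal over the floor of 3 counts. It had 173 and 151 expected counts, or 11.1 TPM in replicate 1 and 9.92 TPM in replicate 2, a mean of 10.5 ± 0.813 TPM (SD, n = 2). Of its 100-base stretches, 51.1% also occur in Gstp2 and 39.5% in Gstp1, and how many of its reads came from those genes was not tested. The 4 Sult2a pseudogenes had no count in either library.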

How the results depend on the processing

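The number of detected members was 38 with each library left out in turn (38 to 38), and between 37 and 40 at TPM minimums of 0.5 and 2, with posterior means and with at least 10 expected counts. In expected counts, uncorrected for length, the family shares moved to 54.2% for cytosolic glutathione transferases, 14.8% for membrane ones, 22.6% for glucuronosyltransferases and 8.41% for sulfotransferases. Leaving out each library gave ranges of 62.7% to 65.1%, 20.4% to 20.5%, 9.58% to 10.6% and 4.89% to 6.20% for the same families. Sult1b1 over Sult1d1 turned to -0.33 (log2) in counts. With no filter, 1 member passed 2-fold between libraries, Ugt1a2, on 2.69 and 19.2 counts. With pseudocount 1, edgeR TMM scaling or DESeq2 size factors, 0 passed. Pairs that were no longer apart were Mgst1 over Mgst3 (0.05) and Ahr over Nr1i2 (-0.51) in counts, and Sult1c1 over Sult1c2 with pseudocount 1, a pair in which Sult1c1 had no count. The leading transcript was the same in 23 of 24 members by posterior means and in 23 of 25 at a TPM minimum of 1. No paired analysis was possible because the study has a single group. With 2 libraries, the SD of each value is itself poorly known, and members under about 3 counts cannot be ranked.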
